A study of Mus musculus with 16 samples.

Results

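The cytosolic ribosomal protein genes encode the proteins of the ribosome that works in the cytoplasm. They were taken as every gene with a symbol that starts with Rpl or Rps and a digit, or is Rplp0, Rplp1, Rplp2 or Rpsa, leaving out pseudogene symbols and the Rps6 kinases. A probe set had to name that gene alone, and where a gene had more than 1, the brightest by its mean of all 16 arrays stood for it. This gave 69 of the 22180 genes tested. Of these, 35 belong to the large subunit and 23 to the small subunit, and 7 are paralogues of such genes (Rpl3l, Rpl7l1, Rpl10l, Rpl22l1, Rpl39l, Rps27l and Rps4l). The other 4 are Rpl6l, Rpl32l, Rps23rg1 and Rps19bp1, of which Rps19bp1 encodes a partner of the S19 protein rather than a ribosomal protein. Of 77 ribosomal protein genes on a list of both subunits, 58 are therefore covered and 19 are not, 12 of the latter having a probe set that also names other genes.

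Ribosomal proteins assemble with ribosomal RNA in the nucleolus, in near equal numbers, into a small subunit that decodes messenger RNA and a large subunit that joins amino acids. Many of their messenger RNAs start with a C followed by a run of pyrimidines, the 5′ terminal oligopyrimidine (TOP) motif, through which the mTOR kinase and the RNA-binding protein Larp1 control their translation and stability. In T cells, ribosome production rises when a naive or memory cell is activated and starts to divide, and Myc is one of the factors that drive it.

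RNA came from CD8 T cells sorted from the spleens of female mice whose strain is given as C56BL/6. The mice were bone marrow (BM) chimeras, with donor marrow that was wild type (WT) or lacked Il4i1 (KO), a gene for a secreted amino acid oxidase, and all of them, WT groups included, had received leukaemia cells of Eµ-TCL1 mice, a model of chronic lymphocytic leukaemia (CLL). Cells were sorted 5 weeks after that transplantation into a CD44high CD127high memory fraction and a CD44+CD127- effector fraction, which gives 4 groups of 4 arrays, KO and WT in each fraction. Only blood cells derived from the graft carry the deletion in a chimera, and nothing in the labels shows that arrays of one group stand for different mice, so the p-values speak of array-to-array spread, which may be technical. In bulk samples such as these, fewer cells of a type and less RNA per cell cannot be told apart.

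Each value is a log2 expression value on 1-colour Affymetrix arrays, so a difference of 1 is 2-fold in signal. The 16 array medians lay between 4.12 and 4.22. Over all genes, array effector KO 4 had correlations of 0.965 to 0.974 with the other arrays, while all other pairs reached at least 0.971. Memory KO 4 had the highest mean of ribosomal protein genes, and the counts of members in effector against memory and in the interaction are also given without both. The probe set that covers Il4i1 also names other genes, so it cannot check the genotype. The sort genes matched the labels: Il7r, which encodes CD127, had a mean of 4.87 in effector and 10.90 in memory arrays, while the granzyme gene Gzmb was higher in effector arrays (11.59 against 10.78). Il7r also differed between the genotypes in effector cells, with 5.69 ± 0.68 in KO and 4.04 ± 0.29 in WT (SD, n = 4 each, limma adjusted p = 0.0183, and 0.0873 without both arrays numbered 4). Genes passed a test at an adjusted p under 0.05 (limma, Benjamini-Hochberg over all genes). Values of single arrays are listed below in the order of the array numbers 1 to 4, which marks no pairing.

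Ribosomal protein genes were lower in effector than in memory cells, in both genotypes. Over both genotypes, 31 of the 69 genes were lower in effector cells and 0 were higher, beside 7.11% of all genes lower and 5.05% higher. In sign, 57 were negative and 12 positive. The median difference, effector minus memory, was -0.19 (log2), against 0.01 over all genes. The falls were small, at most 1.75-fold. On 19 of the 69, every effector array lay below every memory array, and on 0 every effector array lay above, where 1.86% and 0.789% of all genes did so.

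**Figure D1:**
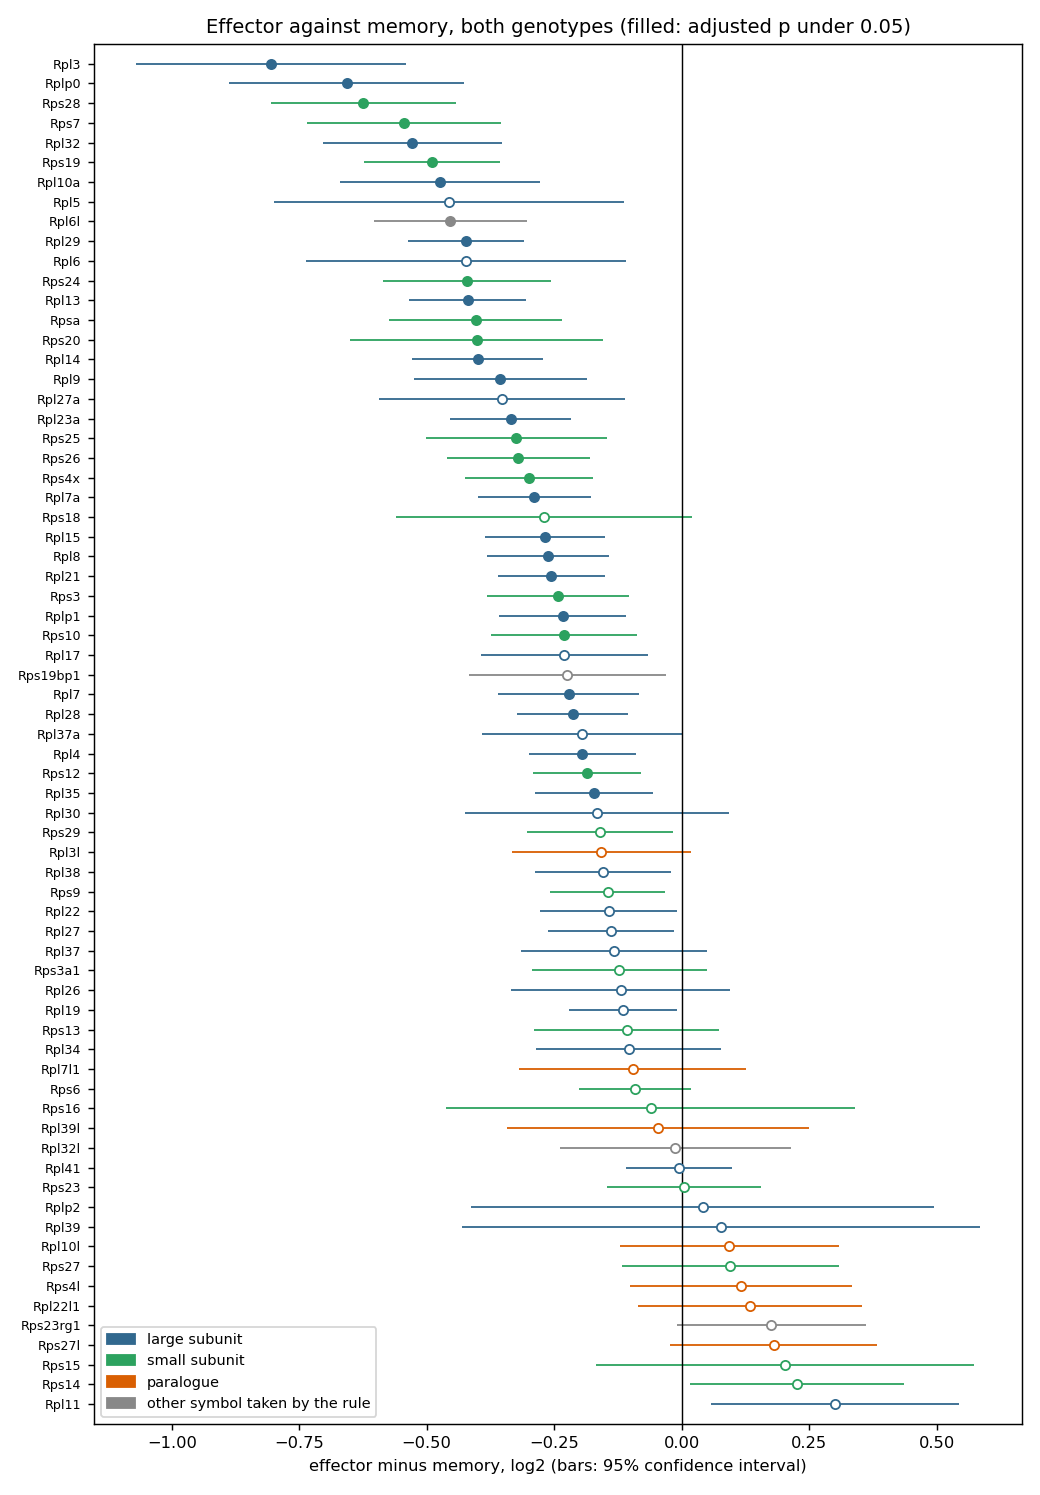
Difference between effector and memory cells (x axis, log2, effector minus memory over both genotypes) for each of the 69 genes (y axis, ordered by the difference), with 95% confidence intervals as bars and colours for the class of gene. Filled points passed at an adjusted p under 0.05: all 31 of them lie left of 0, and none of the 7 paralogues is filled.

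In the large subunit, 18 of 35 genes were lower (median -0.23). Rpl3, whose protein reaches into the centre where peptide bonds form, had the largest fall. Its values were 7.17, 7.84, 7.33 and 6.77 in effector KO and 7.41, 7.52, 7.39 and 7.26 in effector WT, against 8.14, 8.33, 8.25 and 8.57 in memory KO and 8.06, 8.12, 8.07 and 7.63 in memory WT. The subsets touched at 1 point only: effector KO 2 lay above memory WT 4, while the other effector arrays were below all memory arrays. The difference was -0.81 ± 0.12 (SE, n = 8 and 8, limma adjusted p = 0.000383). This is the value of the brightest probe set of Rpl3. Its dimmer ones (means 6.41 and 4.58) were at -0.17 ± 0.26 and -0.22 ± 0.21. Neither passed (limma adjusted p = 0.776 and 0.615, fit over probe sets).

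Rplp0 encodes the base of the stalk on which elongation factors land. It was 7.36, 7.66, 7.46 and 7.76 in effector KO, 7.28, 7.48, 6.91 and 7.24 in effector WT, 8.04, 8.20, 7.83 and 8.55 in memory KO and 7.82, 8.13, 8.03 and 7.78 in memory WT. No effector array reached a memory array, and the difference was -0.66 ± 0.11 (SE, limma adjusted p = 0.00066). Rplp1, which sits on the same stalk, had the brightest probe set of all members and differed by -0.23 ± 0.06 (limma adjusted p = 0.0138), again without overlap. The other stalk gene, Rplp2, was measured by a dim probe set (mean 3.59) at 0.04 ± 0.21.

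Rpl29, a protein of the large subunit also known for binding heparin, had the smallest p of the members. Its effector values were 10.78, 10.84, 10.80 and 10.92 in KO and 10.83, 10.84, 10.74 and 10.78 in WT. The memory values were 11.26, 11.22, 11.25 and 11.41 in KO and 11.26, 11.18, 11.20 and 11.12 in WT. No effector array reached a memory array, and the difference was -0.42 ± 0.05 (SE, limma adjusted p = 6.65e-05), or 1.34-fold. Rpl13 had nearly the same difference (-0.42 ± 0.05), and Rpl32 (-0.53 ± 0.08), Rpl10a (-0.47 ± 0.09) and Rpl14 (-0.40 ± 0.06) fell as well. Further falls went down to -0.17 in Rpl35 (adjusted p = 0.0497).

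Rpl41, the gene of a very short basic peptide of the ribosome, differed from these. It was 12.19, 12.12, 12.12 and 12.07 in effector KO, 12.18, 12.11, 12.12 and 12.15 in effector WT, 12.14, 12.11, 12.15 and 12.16 in memory KO and 12.11, 12.16, 12.16 and 12.09 in memory WT. The groups overlapped throughout, and the 95% interval of the difference ran from -0.11 to 0.10, which leaves out the median of the bright ribosomal protein genes given below (-0.25). The gene was singled out after its values were seen. Its 3 other bright probe sets lay at -0.06, -0.08 and -0.09, none passing, while a dim one (mean 5.49) was higher in effector cells by 0.85 ± 0.14 (limma adjusted p = 0.000528, fit over probe sets).

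In the small subunit, 12 of 23 genes were lower (median -0.23). Rps28, one of the smallest ribosomal proteins, showed the largest fall of this subunit. Its values were 10.43, 10.22, 10.20 and 9.97 in effector KO and 10.41, 10.34, 10.30 and 10.27 in effector WT, then 11.12, 10.70, 10.93 and 11.30 in memory KO and 10.78, 10.78, 10.86 and 10.67 in memory WT. The subsets did not overlap, and the difference was -0.62 ± 0.09 (SE, limma adjusted p = 0.00013), or 1.54-fold.

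Rps19, the gene most often mutated in Diamond-Blackfan anaemia, was 10.49, 10.54, 10.51 and 10.46 in effector KO and 10.70, 10.69, 10.50 and 10.64 in effector WT. In memory cells it was 11.10, 11.00, 11.21 and 11.33 in KO and 11.06, 10.93, 10.99 and 10.83 in WT. All effector arrays were below all memory arrays, by -0.49 ± 0.06 in the means (SE, limma adjusted p = 7.21e-05). Rps7 (-0.54 ± 0.09) and Rps24 (-0.42 ± 0.08), which are mutated in the same disease, fell too, as did Rpsa, also known as the laminin receptor (-0.40 ± 0.08). Rps26, which contacts messenger RNA at its exit from the ribosome, was at -0.32 ± 0.07 and the X-linked Rps4x at -0.30 ± 0.06, both past the threshold. Rps6, the protein that the S6 kinases phosphorylate, did not pass (-0.09 ± 0.05, 95% interval -0.20 to 0.02).

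**Figure D2:**
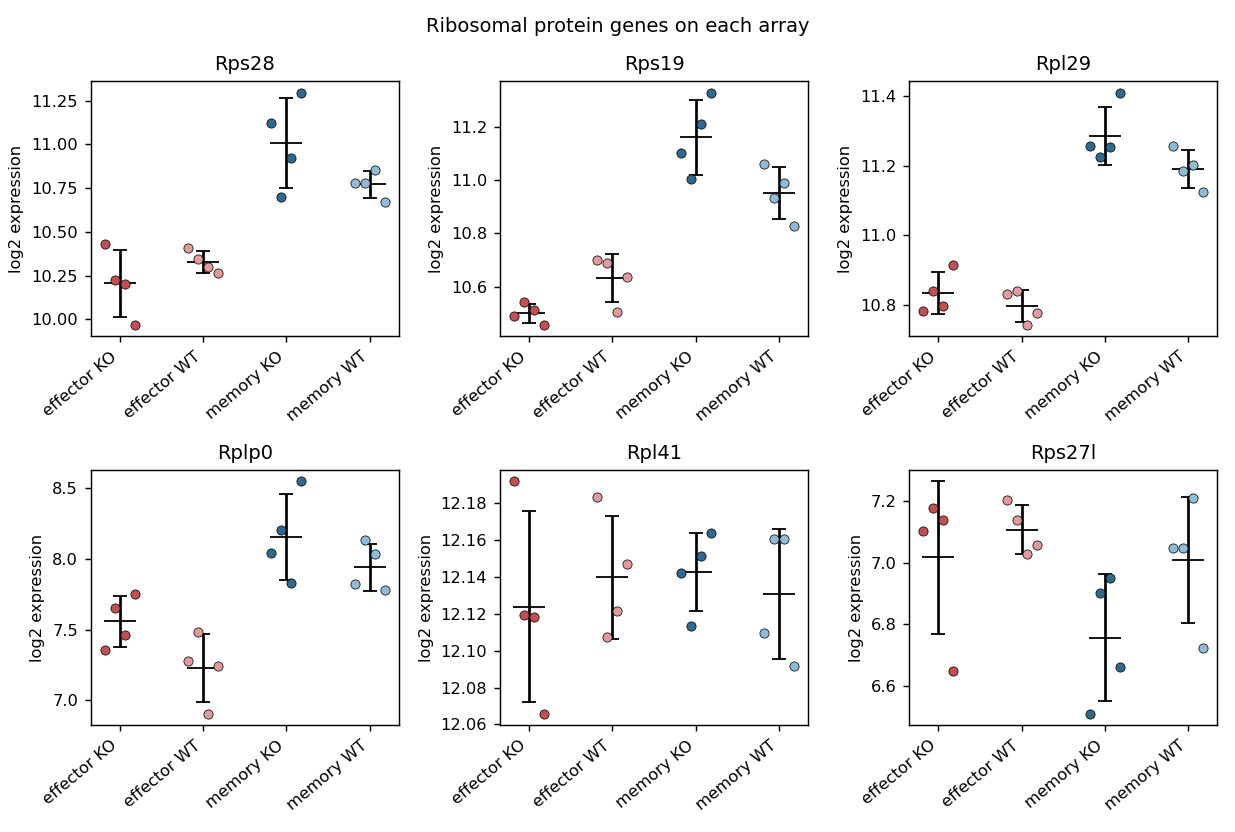
Log2 expression (y axis, each panel with its own range that does not start at 0) of 6 genes on each array, by group (x axis), with points for arrays and bars for the group mean ± SD (n = 4). In Rps28, Rps19, Rpl29 and Rplp0 the 8 effector arrays lie below the 8 memory arrays, while Rpl41 and the paralogue Rps27l overlap.

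None of the paralogues passed by limma: 0 of 7 were lower (0 at an unadjusted p under 0.05), beside 7.11% of all genes. With so few genes, 0 calls is near that share. All 7 had probe set means of 10 or less, where 9 of 39 members were lower. Their median was 0.09, and 4 of the 7 were positive. Rps27l, a close copy of Rps27 that the tumour suppressor Trp53 induces, was 7.10, 7.18, 7.14 and 6.65 in effector KO, 7.20, 7.14, 7.03 and 7.06 in effector WT, 6.51, 6.90, 6.95 and 6.66 in memory KO and 7.05, 7.05, 7.21 and 6.72 in memory WT. The groups overlapped, and the difference of 0.18 ± 0.10 did not pass (limma adjusted p = 0.283). Rpl22l1, which can take the place of Rpl22, was at 0.13 ± 0.10 (95% interval -0.08 to 0.35), and Rpl22 itself at -0.14 ± 0.06, neither passing. Rpl7l1 (-0.10 ± 0.11), Rpl39l (-0.05 ± 0.14), Rps4l (0.12 ± 0.10), the muscle paralogue Rpl3l (-0.16 ± 0.08) and the testis paralogue Rpl10l (0.09 ± 0.10) complete the list. Rpl3l and Rpl10l lay below the array median on all 16 arrays, and Rps4l lay above it on 6. Of the 4 other symbols, Rpl6l fell by 0.45 (SE 0.07, limma adjusted p = 0.000394) while Rps19bp1 (-0.22 ± 0.09), Rpl32l (-0.01 ± 0.11) and Rps23rg1 (0.18 ± 0.09) did not pass.

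Some promoters of members carry sequence features that the rule did not use. RefSeq sequences (build GRCm38.p6) from 250 bases before to 50 after the annotated start were matched for 54 of the 69 genes, and for 16990 of all tested genes. A C followed by at least 4 C or T right at the start, as in a TOP motif, was found in 11 of 54 members (20.4%) and 2.75% of tested genes. Among members lower in effector cells it was 5 of 21 (23.8%), and among those that did not pass 6 of 33 (18.2%). When the run could begin within 10 bases of the start, the shares were 59.3% of members and 35.0% of tested genes. The letters ACTTCCG, a site type of ETS factors such as Gabpa, were found on either strand in 31.5% of members and 9.26% of tested genes. Its inner letters CTTCC can also be counted as a pyrimidine run. CACGTG, the E-box that Myc binds, which reads the same on both strands, was in 7.41% of members and 9.19% of tested genes, and TATAA on the gene's strand, 40 to 16 bases before the start, in 9.26% and 4.79%. Annotated starts can be some bases off, and a match is a description of letters.

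The windows below run from 10 bases before the annotated start to 20 transcribed bases of the first exon, 5′ to 3′ on the gene's strand, with the pyrimidine run from the start in capitals. The first 5 are the members lower in effector cells that carry such a run.
Rpl14 (chr9:120571507-120571536, plus strand): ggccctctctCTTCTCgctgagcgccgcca
Rpl15 (chr14:18270967-18270996, minus strand): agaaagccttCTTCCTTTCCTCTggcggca
Rpl28 (chr7:4792955-4792984, plus strand): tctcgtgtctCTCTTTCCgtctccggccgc
Rpl35 (chr2:39005112-39005141, minus strand): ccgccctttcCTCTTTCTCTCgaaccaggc
Rps10 (chr17:27635225-27635254, minus strand): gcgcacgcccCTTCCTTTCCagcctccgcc
Rps6 and Rps27, which did not pass, carry a run of the same kind.
Rps6 (chr4:86857348-86857377, minus strand): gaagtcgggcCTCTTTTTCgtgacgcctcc
Rps27 (chr3:90213629-90213658, minus strand): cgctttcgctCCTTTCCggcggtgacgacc
None of the 6 paralogues with a promoter has the run at the start, as 2 of them show, although 5 of the 6 (83.3%) have one that begins within 10 bases of it.
Rpl22l1 (chr3:28805498-28805527, plus strand): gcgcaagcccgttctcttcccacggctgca
Rpl7l1 (chr17:46782637-46782666, minus strand): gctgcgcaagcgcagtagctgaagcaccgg
The differences between effector and memory cells were -0.40 for Rpl14, -0.27 for Rpl15, -0.21 for Rpl28, -0.17 for Rpl35 and -0.23 for Rps10. Rps6, which also carries a run, was at -0.09. Rplp0, Rps28, Rps7 and Rps19, which fell more than Rpl14, have no run at the annotated start.

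The fall was most regular among genes with bright probe sets. The signal of a probe set depends on its probes as well as on the transcript, so this sorts probe sets and not genes by abundance. Of the 30 members with a mean over 10, all 30 were negative and 22 were lower (median -0.25, range -0.62 to -0.0048), and on 16 of them the subsets did not overlap. Among the 371 other genes with a mean over 10, 46 were lower (12.4%), 55 were higher (14.8%), and the median was 0.02. Of the 39 members at 10 or less, 9 were lower, 27 were negative and 12 positive. The 8 members under the median signal of all genes gave 0 calls by limma (1 at an unadjusted p under 0.05), with 4 on either side of 0. The positive differences with the smallest p were those of Rpl11 (0.30 ± 0.11, limma adjusted p = 0.111) and Rps14 (0.23 ± 0.10, limma adjusted p = 0.173), with probe set means of 4.47 and 4.75. The median spread within a group was 0.079 (SD, log2) for bright members, 0.210 for the dimmer ones and 0.191 over all genes.

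**Figure D3:**
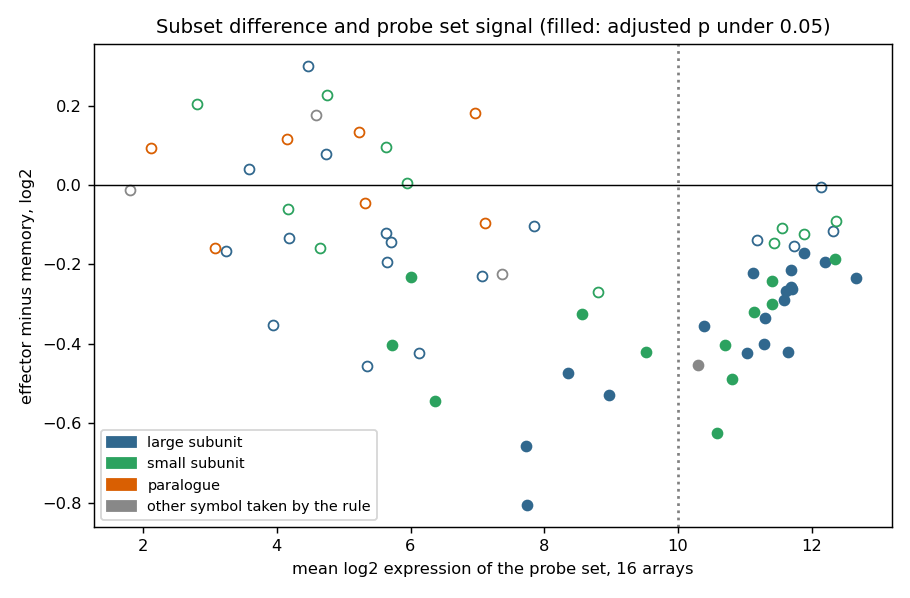
Difference between effector and memory cells (y axis, log2) against the mean signal of the probe set over 16 arrays (x axis, log2), with 1 point per gene coloured by class and filled at an adjusted p under 0.05. All 30 points right of the dotted line at 10 lie below 0, while the points left of it lie on both sides.

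Probe sets of one gene did not always move together. The 69 genes have 110 probe sets that name them alone. In a fit over the 23521 probe sets with 1 symbol, 52 of the 110 were lower in effector cells and 2 higher, beside 6.87% and 4.82% of those 23521. All 45 with a mean over 10 were negative, 33 of them past the threshold. The 2 that were higher were the dim ones of Rpl41, given above, and of Rpl7a (mean 5.81, 0.66 ± 0.18, limma adjusted p = 0.028), while the bright probe sets of Rpl7a were at -0.29 and -0.30. Both were singled out after their values were seen. Of the 25 genes with several probe sets, 17 had probe set means more than 3 apart, and 6 of the 8 probe sets of Rps12 had equal means. A bright probe set can also catch RNA of the many processed pseudogenes of its gene, so its value is uncertain as a measure of that gene alone.

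Probe sets shared with other symbols were left out by the rule. Some name genes that the 69 miss, such as Rpl12 and Rps21, and many name genes that are among the 69. The counts here take both kinds together. Of 57 such probe sets, 20 were lower and 4 higher in effector cells, beside 6.77% and 5% of the 25335 probe sets with any symbol. Of the 18 with a mean over 10, 17 were negative. Rpl12, a large subunit gene, was lower on 2 probe sets shared with a predicted gene, by -0.40 ± 0.06 and -0.60 ± 0.08 (limma adjusted p = 0.000212 and 0.000134), while the other, dimmer one (mean 6.36) was at 0.00 ± 0.12. Rps21 was lower by -0.29 ± 0.06 on a probe set shared with a predicted gene. It was at -0.40 ± 0.07, also lower, on one that also names the collagen gene Col6a1 and predicted genes. The probe set of Rps27 and its copy Rps27rt, with a mean of 11.67, was lower by -0.36 ± 0.07 (limma adjusted p = 0.00201), whereas the dim probe set that names Rps27 alone (mean 5.63) was at 0.10 ± 0.10. These probe sets were picked after their values were seen.

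The bright members moved together between arrays. The mean of the 30 was 11.37, 11.33, 11.35 and 11.42 in effector KO, 11.41, 11.38, 11.33 and 11.37 in effector WT, 11.64, 11.61, 11.66 and 11.78 in memory KO and 11.67, 11.59, 11.61 and 11.53 in memory WT. Every effector array was lower than every memory array, with the highest value on memory KO 4. After group means were taken off, the median correlation between pairs of these genes was 0.42 over the 16 arrays, against 0.10 for the 371 other bright genes and 0.08 for the dimmer members. Pairs share the array and its normalization, so this is a description. The means of the paralogues overlapped, at 4.78 to 4.96 in effector and 4.79 to 4.91 in memory cells.

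Within a genotype the fall was seen in both, and the WT and KO comparisons share no array. In WT mice 7 of 69 were lower and 0 higher in effector cells, where 2.3% of all genes were lower and 0.92% higher: Rplp0, Rps7, Rpl32, Rpl6l, Rpl29, Rpl13 and Rpl14. In KO mice 19 were lower and 0 higher, where 4.3% of all genes were lower and 3.14% higher. These 19 include the 7, and the other 12 passed in KO alone. In sign the genotypes were closer: 52 genes were negative in both, 9 positive in both, 4 negative in WT alone and 4 in KO alone, and all 31 genes lower over both genotypes were negative in each. Every effector array lay below every memory array in 32 genes in WT and 28 in KO (6.8% and 6.1% of all genes). Every effector array lay above in 1 member in WT and 0 in KO (6.41% and 4.06% of all genes), and that member was Rps27 on its dim probe set.

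The count in WT depends on single arrays. It was 1 without memory WT 3, 2 without effector WT 3, effector WT 4 or memory WT 1, and 14 without effector KO 4, which enters through the shared estimate of spread. It was 15 without both KO arrays numbered 4. The count in KO was 16 without both, and 8 in a fit of the 8 KO arrays alone. The count over both genotypes was 31 without both.

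Whether the fall itself differed between genotypes was tested as the interaction. It passed in 0 of 69 members and in 0% of all genes by limma, with 3 members and 1296 of all genes at an unadjusted p under 0.05. The interaction was negative in 41 of 69 genes, and 23 of the 31 that passed over both genotypes fell more in KO. Without both KO arrays numbered 4 these counts were 40 and 20, and 0 members passed. Rps27 was at -0.61 ± 0.20, Rps19 at -0.34 ± 0.13 and Rpl23a at -0.30 ± 0.11, each with an adjusted p of 0.841. For Rps19 the fall was -0.66 ± 0.09 in KO and -0.32 ± 0.09 in WT. The interval of its interaction ran from -0.61 to -0.07 before adjustment, and without both KO arrays numbered 4 the interaction was -0.27 ± 0.13 (limma adjusted p = 0.749).

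**Figure D4:**
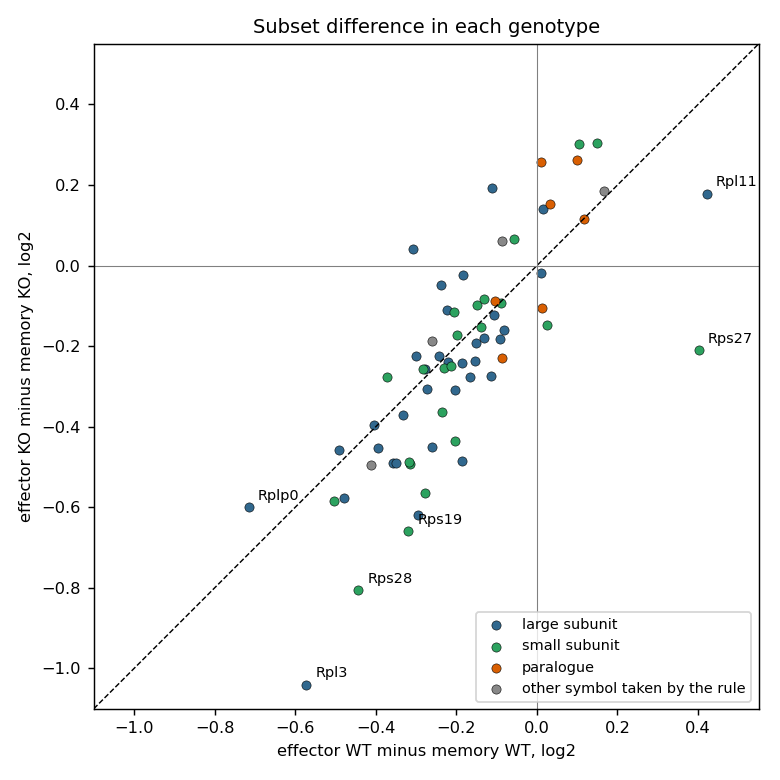
Difference between effector and memory cells in KO mice (y axis, log2) against that in WT mice (x axis, log2), 1 point per gene, coloured by class, with a dashed line where both are equal. Most points lie where both values are negative, as 52 of the 69 genes do, and Rpl3, Rps28 and Rps19 lie below the dashed line.

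Loss of Il4i1 in the graft was compared with WT within each subset. The level of Il7r differed between KO and WT effector cells, as given above, and its part in this comparison was not tested. In effector cells 0 of 69 members passed, where 0.0541% of all genes did (0.018% lower and 0.0361% higher in KO, limma). An unadjusted p under 0.05 was found in 2 members and in 2067 of the 22180 genes tested. These 2 were Rpl37 at 0.27 ± 0.12 and Rplp0 at 0.33 ± 0.15. The median over members was 0.01, as over all genes, with 38 positive and 31 negative. In memory cells 0 of 69 passed as well, where 0.113% of all genes did (0.0766% lower and 0.0361% higher, limma). There, 5 members and 2500 of the 22180 genes had an unadjusted p under 0.05. Rpl34, a large subunit gene, had the most negative difference, with values of 7.51, 7.85, 7.50 and 7.94 in memory KO and 8.23, 8.12, 8.28 and 7.79 in memory WT. Memory WT 4 lay below memory KO 2 and memory KO 4, so the groups overlapped, and the difference was -0.40 ± 0.12 (SE, n = 4 and 4, limma adjusted p = 0.221). Its effector arrays, at 7.75, 7.67, 7.69 and 7.60 in KO and 7.97, 7.92, 7.98 and 7.80 in WT, did not overlap, with a difference of -0.24 ± 0.12 (limma adjusted p = 0.556).

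Rps27 was at 0.41 ± 0.14, Rps23 at -0.26 ± 0.10, Rps19 at 0.21 ± 0.09 and Rps24 at 0.25 ± 0.11 in memory KO against WT, with adjusted p-values of 0.283 to 0.41. Of the 30 bright members, 28 were positive in memory KO, with a median of 0.05, but 23 without both KO arrays numbered 4, with a median of 0.02. The 371 other bright genes had a median of -0.03. The memory KO arrays did not overlap memory WT in 7 members, 6 of them above (3.12% of all genes) and 1 below (3.37%). In effector cells 2 members lay above and 1 below without overlap (2.71% and 1.94% of all genes). The precision bounds what these comparisons can show: the median 95% half-width for bright members was 0.17, and no bound of a bright member lay farther from 0 than 0.38 in effector and 0.49 in memory cells.

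Other genes of ribosome production were lower in effector cells as well. The counts of each list stand beside 7.11% of all genes lower and 5.05% higher. Of 19 translation factor and related genes, many of which also start with a TOP motif, 9 were lower and 0 higher, and all 19 were negative (median -0.20). They include the elongation factor subunits Eef1d (-0.33 ± 0.06) and Eef1g (-0.31 ± 0.07) and the initiation factors Eif3e (-0.36 ± 0.07) and Eif4b (-0.39 ± 0.09). Of 33 ribosome biogenesis genes, 16 were lower and 0 higher (median -0.32). Examples are Dkc1, which modifies ribosomal RNA (-0.69 ± 0.12), its partner Nop10 (-0.56 ± 0.08), Wdr12, which matures the large subunit (-0.66 ± 0.10), and the RNA methylase Nop2 (-0.46 ± 0.08). Array effector KO 4 was lowest in this list, at 7.17 against 7.51 to 7.71 on the other effector KO arrays.

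RNA polymerase I, which transcribes the large ribosomal RNAs, had 7 of 18 genes lower and 0 higher (median -0.20), with its catalytic subunits Polr1b (-0.64 ± 0.12) and Polr1a (-0.49 ± 0.09) among them. Of 20 genes that control ribosomal protein synthesis, 4 were lower and 3 higher, beside 7.11% and 5.05% of all genes. Myc was lower by -0.87 ± 0.15 (limma adjusted p = 0.000997), Larp1 by -0.33 ± 0.06 and the translation repressor gene Eif4ebp1 by -0.70 ± 0.14, while the S6 kinase gene Rps6kb2 was higher by 0.68 ± 0.10. Of 71 mitochondrial ribosomal protein genes, which serve a different ribosome, 12 were lower (16.9%) and 2 higher. Their median was -0.13, with Mrpl23 at -0.61 ± 0.09. Without both KO arrays numbered 4, the counts of lower genes were 6 of 19 translation factors, 11 of 33 biogenesis genes (median -0.21), 4 of 18 polymerase I genes and 8 of 71 mitochondrial ribosomal protein genes. Fau, which encodes a small subunit protein under another name, was at -0.15 ± 0.06 and did not pass.

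**Figure D5:**
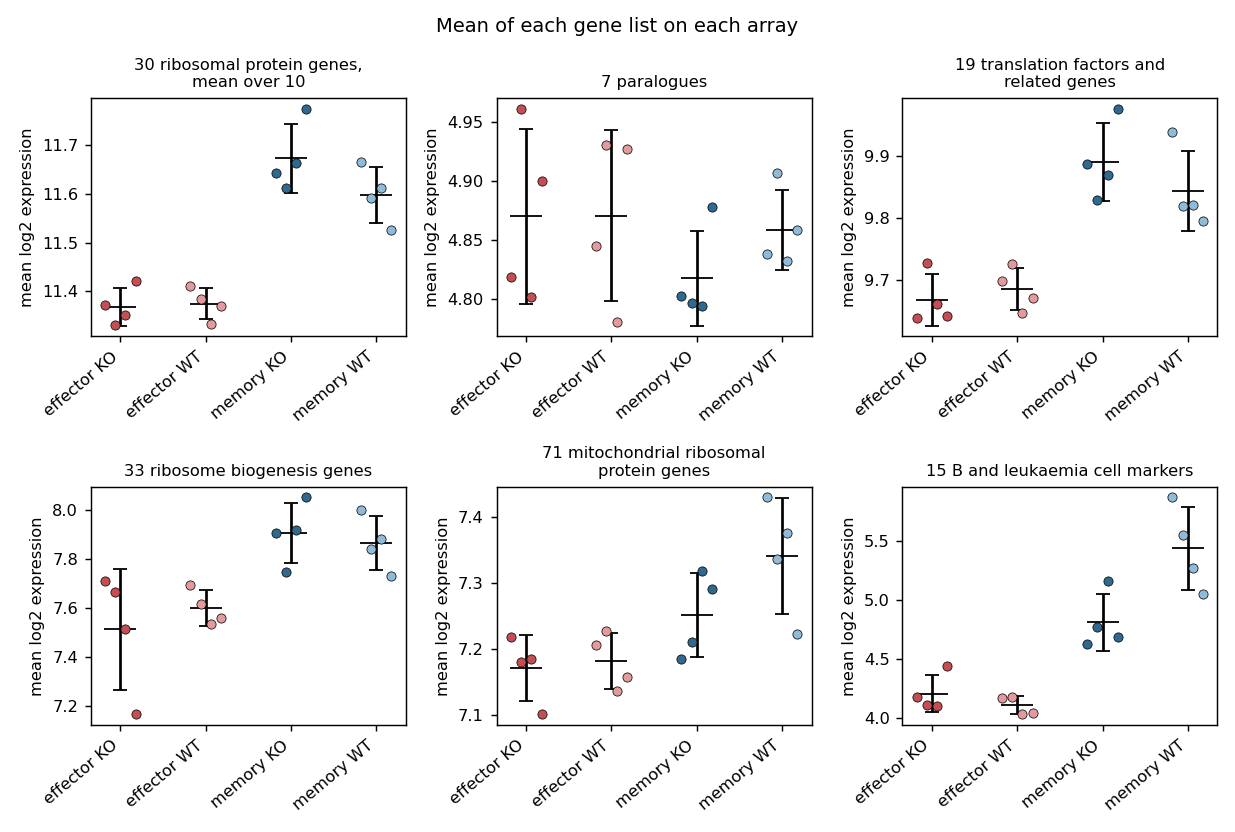
Mean log2 expression (y axis, each panel with its own range that does not start at 0) of 6 gene lists on each array, by group (x axis), with points for arrays and bars for the mean ± SD (n = 4). Bright ribosomal protein genes, translation factors, ribosome biogenesis genes and B and leukaemia cell markers are lower on every effector array than on every memory array. The paralogues and the mitochondrial ribosomal protein genes overlap.

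Markers of other cells differed between the subsets in some lists. Their counts stand beside 7.11% of all genes lower and 5.05% higher in effector cells. B and leukaemia cell markers were lower in effector cells in 12 of 15 (0 higher, median -0.85). The mean of these 15 was 4.04 to 4.44 on effector arrays, 4.63 to 5.16 in memory KO and 5.05 to 5.87 in memory WT. Their levels differed more between the subsets in WT (4.11 and 5.44) than in KO (4.21 and 4.81). The bright ribosomal protein genes differed less in WT (11.37 and 11.60) than in KO (11.37 and 11.67), and memory KO 4, with the highest ribosomal protein mean, had a B marker mean of 4.68. Ighm was at 9.24 in effector and 11.21 in memory arrays, and Ms4a1 at 3.43 and 4.97. Of 17 myeloid markers 6 were lower and 1 higher, with array means of 4.96 to 5.14 in effector and 4.97 to 5.79 in memory cells. Of 6 NK markers 3 were lower and 1 higher, with array means of 5.06 to 5.27 and 5.54 to 5.84. The NK and myeloid lists were drawn up with Tyrobp and Fcgr3 in common, so their counts are not independent. Of 8 CD4 and regulatory T cell markers 1 was lower and 1 higher, and 0 of 3 erythroid and 0 of 7 platelet markers passed by limma (unadjusted p under 0.05 in 1 and 3). CD8 T cell genes were higher in effector cells in 4 of 8, with Cd8a at 0.25 ± 0.07. Which cells the RNA of these markers came from, the CD8 T cells themselves included, was not tested. The part of other cells in the fall of ribosomal protein genes was not tested either.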

How the data were processed

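Total RNA (RNeasy Micro Kit, 1 ng input) was labelled with the Affymetrix GeneChip WT Pico Reagent Kit for 1-colour arrays, per the labels' protocols. The log2 values were deposited by the authors for 41345 probe sets. How they were normalized is not given in the sources used here. The log base was inferred from their range, 0.74 to 14.05. No detection call came with them, so the number of arrays limits the precision. A table of platform annotation named 1 gene for 23521 probe sets and several for 1814.

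limma 3.58.1 (R 4.3.3) fitted 1 mean per group to 16 arrays (12 residual degrees of freedom), with Benjamini-Hochberg adjustment over 22180 genes, two-sided, and was tested on simulated data. Comparisons were effector against memory (over both genotypes, in each), KO against WT in each subset, and the interaction. The members and lists were chosen with earlier results of these data known. Named are the 10 largest falls among members that passed, the smallest p of each comparison, the brightest and dimmest 3, all paralogues and up to 4 genes of each other list. Members outside this rule were chosen after their values were seen. Alternatives covered scaling, signal filter, probe set choice, fit, replicate block and left-out arrays.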

Additional observations from a re-analysis of the deposited data

Results flagged for a closer look

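Within groups of 4 arrays, 188 sets of values were checked for 1 array far from the other 3, and 13 were found. Chance alone gives about 1 in 20. Effector KO 4 accounts for 5 and memory KO 4 for 5 of them. On effector KO 4, Rpsa was 10.03 (others 10.52 to 10.59), Rps27l 6.65 (7.10 to 7.18) and Rps19bp1 6.68 (7.36 to 7.38), all low. On the same array Rpl9 was 10.50 (others 10.10 to 10.16) and Rps4x 11.35 (11.22 to 11.23), both high. On memory KO 4, Rpl29 was 11.41 (others 11.22 to 11.26) and Rps24 10.03 (9.78 to 9.81), both high, while Rps19bp1 was 7.34 (7.40 to 7.41), low. The mean of all 69 genes on that array was 8.44 (others 8.27 to 8.30) and that of the 7 paralogues 4.88 (4.79 to 4.80). Single cases were Rpl3 at 7.63 on memory WT 4 (others 8.06 to 8.12), Rpl39l at 5.64 on effector WT 4 (5.08 to 5.17) and Rpl3l at 3.23 on memory WT 2 (3.04 to 3.06).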

How the results depend on the processing

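Each comparison was run under 25 alternatives. Of these, 16 left out 1 array each, and 1, without both KO arrays numbered 4, was chosen after seeing the data. Comparisons within a subset or within a genotype were also run in a fit of the groups compared alone. The count of members lower in effector cells over both genotypes (31) lay between 27 and 37 in all of them, and between 27 and 34 with 1 array left out. In KO (19) it was 8 in a fit of the groups compared alone, which has fewer arrays, and 14 to 24 with 1 array left out. In WT (7) it was 13 with each array centred on its median, 13 among genes above the median signal, 11 in a fit of the groups compared alone, 18 with array weights, 18 with a trended and robust prior and 15 without both KO arrays numbered 4; with 1 array left out it was 1 to 14. The cause was not tested. KO against WT and the interaction gave 0 members in every alternative. The replicate numbers were not taken as a pairing, since not every same-numbered pair correlated over 0.1. Between subsets of 1 genotype 6 of 8 did (0.018 to 0.239) and 7 of 8 correlated best with their own number, a hint from the data, not the design; between genotypes it was 2 and 4 of 8. With the number as a block the counts over both genotypes, in KO and in WT were 29, 18 and 6, and as a random block 32, 22 and 12. Of 21 named members that passed, 17 did so in every alternative. Means over probe sets ended the calls of Rpl21 (-0.17) and Rpl9 (-0.10) and turned Rpl7a (0.023), and Rps12 missed the threshold without effector WT 3 (adjusted p = 0.0501). Genes near 0 changed sign: Rps23 (-0.010 when centred, -0.026 to 0.036 with 1 array left out), Rpl39l (0.012 with array weights, -0.11 to 0.050 with 1 left out), Rpl32l (-0.081 to 0.051 with 1 left out) and Rpl7l1 (0.0084 without both KO arrays numbered 4).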

Other observations

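Some probe sets that overlap ribosomal protein genes and also name a small nucleolar RNA, a guide RNA encoded in introns of these genes, went the other way. They were picked after their values were seen. The probe set of Snord34 and Rpl13a was higher in effector than in memory cells by 0.77 ± 0.14 (SE, log2, limma adjusted p = 0.00193), and that of Snord32a and Rpl13a by 0.98 ± 0.18 (adjusted p = 0.00142). Snord33 with Mir5121 and Rpl13a was at 0.31 ± 0.21, Snord14a with Rps13 at 0.58 ± 0.28, Snord15b with Rps3 at 0.25 ± 0.18 and Snord68 with Rpl13 at -0.14 ± 0.15, none of which passed. Snora3 with Rpl27a (0.05 ± 0.17), Snora52 with Rplp2 (0.02 ± 0.31) and Snora70 with Rpl10 (0.31 ± 0.21) did not pass either. Probe sets that name another protein-coding gene beside a ribosomal protein gene went both ways. Flt3l with Rpl13a was higher by 0.69 ± 0.09 (limma adjusted p = 6.02e-05) and Ccdc84 with Rps25 by 0.77 ± 0.21 (adjusted p = 0.0259). Zbtb11 with Rpl24 was at -0.36 ± 0.09 (adjusted p = 0.0115) and Dnaaf2 with Rpl36a and Rpl36al at -0.25 ± 0.06 (adjusted p = 0.0101), both lower, while Ino80 with Rpl35a (-0.13 ± 0.05) did not pass. A dimmer probe set of Zbtb11 and Rpl24 (mean 4.21) was at -0.0064 ± 0.093 and did not pass. The probe set that also names Zbtb11os1 was at -0.43 ± 0.13 (limma adjusted p = 0.0417). The one that names Col6a1 and Rps21, given above, was lower as well. The files do not say which of the named transcripts such a probe set measures.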
